A study of Mus musculus with 15 samples.

Results

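The comparison asks which transcripts of lung fibroblasts differed when the treatment held interleukin-13 (IL-13) beside IL-33 and IL-17A. The 3 libraries labelled IL-33/13/17A, here called the triple combination, were compared with the 3 labelled IL-33/17A, which makes 6 of the 15 libraries of the series. All 15 are RNA sequencing libraries of primary lung fibroblasts from wild-type BALB/cJ mice. The other groups, of 3 libraries each, were untreated, IL-33 alone and IL-33/13. Both groups compared therefore carried IL-33 and IL-17A, differed only in IL-13, and had the same time label of 20 h after stimulation. Of the 18078 genes in the files, the 13163 with 1 TPM or more (a length-scaled share of a library's reads) in at least 3 of these 6 libraries were tested.

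IL-13 is a cytokine of type 2 immunity, made by innate lymphoid cells and T helper cells. It binds a receptor of the IL-13 receptor alpha 1 chain and the IL-4 receptor alpha chain, which activates Janus kinases and the transcription factor STAT6. IL-13 receptor alpha 2 binds the same cytokine and acts mostly as a decoy. In the lung, IL-13 is known for eosinophil recruitment through eotaxins, for alternative activation of macrophages and for a part in fibrosis. IL-33 is an alarmin that signals through the receptor ST2, encoded by Il1rl1, and IL-17A is a cytokine known for inducing neutrophil chemokines in stromal cells, in part by stabilising their mRNA.

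The labels call the cells fibroblasts, but transcripts of macrophages were abundant too. Of 14 fibroblast markers, 10 had a mean over the 6 libraries of at least 10 TPM, and so did 13 of the 17 macrophage markers found in the files. Lysozyme 2 (Lyz2), a macrophage transcript, lay between 8628 and 10082 TPM in the 6 libraries. The summed level of the macrophage markers ran from 19322 to 20495 TPM with IL-33/17A and from 17928 to 18784 TPM with the triple combination. In these bulk samples, fewer cells of a type and less RNA per cell cannot be told apart, and neither can the cell type in which a gene changed. The depth was estimated at 11615100 to 15086900 reads in each of the 6 libraries.

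The 15 libraries fell into sets by the share of TPM from the 13 mitochondrially encoded genes, 3.50% to 3.87% in 6 libraries and 4.77% to 6.13% in the other 9. Replicates 2 and 3 of IL-33/17A and replicate 1 of the triple combination were in the lower set, so each compared group held libraries of both sets. All IL-33 libraries were in the higher set and all IL-33/13 libraries in the lower one. The labels do not say that the libraries of a group came from separate cultures or animals, so p-values measure only the spread between libraries, which may be technical.

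Addition of IL-13 changed 2211 of the 13163 tested genes (16.8%; limma on log2(TPM + 1), Benjamini-Hochberg adjusted p under 0.05), of which 939 rose (7.13%) and 1272 fell (9.66%). The counts of each gene list below are to be read against these shares. Most changes were small: 132 genes were both called and changed by at least 2-fold on this scale, 95 up (0.722%) and 37 down (0.281%). The median log2 change of all tested genes was -0.01. With the libraries scaled by median ratios instead, 1175 genes rose and 1171 fell. The 6 libraries separated by group with no overlap for 27.7% of the tested genes (11.4% higher, 16.3% lower), so a lack of overlap alone was common. All 2211 called genes changed in the same direction within the lower and within the higher mitochondrial set. Each set is a part of the 6 libraries that gave the calls, so the shared direction is no separate support. Without replicate 2 of the triple combination the number called was 1468, and with the fit on the 2 compared groups alone it was 803.

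Among the receptors, the chains that bind IL-13 for signalling did not pass the test, while the decoy chain and the IL-33 receptor rose. Of 8 tested receptor genes for the 3 cytokines, 2 rose and 1 fell. Il13ra2, the decoy receptor (GRCm38 chromosome X, 147383476 to 147429192), was at 7.11, 6.4 and 5.78 TPM with IL-33/17A and 29.8, 36.1 and 37.6 TPM with IL-33/13/17A. The triple libraries were all above the IL-33/17A libraries, and the mean was 5.37 times as high (log2 change 2.25 ± 0.09, adjusted p = 1.51e-08). Il1rl1, the gene of the IL-33 receptor ST2 (chromosome 1, 40429570 to 40465415), was at 87.6, 78.1 and 87.8 TPM with IL-33/17A and 345, 383 and 373 TPM with IL-33/13/17A. Its groups lay far apart as well, with a log2 change of 2.11 ± 0.08, adjusted p = 7.47e-09. Il17ra, a chain of the IL-17A receptor, fell from 47.3 ± 3.79 TPM (SD, n = 3) to 34.3 ± 1.42 TPM (log2 change -0.45 ± 0.06). Il4ra gave a log2 difference of -0.08 ± 0.04, adjusted p = 0.174, and Il13ra1 of -0.03 ± 0.07, adjusted p = 0.813. Neither passed the test.

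Of 21 tested genes of the JAK, STAT and SOCS group, 8 rose, led by feedback inhibitors of cytokine signalling, and 1 fell. The 8 became 5 without replicate 2 of IL-33/17A or without replicate 2 or 3 of the triple combination. Cish, a SOCS-family inhibitor of STAT5 signalling, was at 26.3, 31.9 and 29.6 TPM with IL-33/17A and 107, 102 and 92.5 TPM with IL-33/13/17A. This was a 3.43-fold rise with no overlap (log2 change 1.75 ± 0.10, adjusted p = 2.44e-07). Socs1 rose by a log2 of 0.84 ± 0.17 and Socs3, an inhibitor of the gp130 receptors, by 0.68 ± 0.07. Socs2 rose by a log2 of 0.53 ± 0.10. The phosphatase gene Ptpn6 fell by 0.30 on the log2 scale. Stat6 itself did not pass the test, with a log2 difference of -0.11 ± 0.04, adjusted p = 0.109.

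Of the genes listed as STAT6 response genes, 20 of the 24 tested (of 34 listed) rose and none fell. Their median log2 change was 1.02, beside -0.01 over all tested genes. The list was chosen with earlier results of these data known, so this count is not independent support. The 20 include Chil3, which passed the filter only through the triple libraries and could only rise. They also include Cdh1, with a mean of 0.642 TPM with IL-33/17A. Aldh1a3, which makes retinoic acid (GRCm38 chromosome 7, 66390890 to 66427517), was near 1 TPM without IL-13 and clearly expressed with it, at 0.956, 1.16 and 1.16 TPM with IL-33/17A and 43.9, 46.5 and 44.6 TPM with IL-33/13/17A. The rise was 41.2-fold in TPM (log2 change 4.46 ± 0.11, adjusted p = 1.35e-10). Ccl11, the eotaxin gene (chromosome 11, 82057823 to 82062955), was at 122, 102 and 113 TPM with IL-33/17A and 1109.9, 1202 and 1172 TPM with IL-33/13/17A. Its mean rose 10.3-fold (log2 change 3.36 ± 0.13, adjusted p = 8.02e-09), and the lowest triple library was far above the highest IL-33/17A library. Arg1, the arginase of alternatively activated macrophages, was already high and rose 1.99-fold, from 809.9 ± 66 TPM to 1611 ± 17.4 TPM (log2 change 0.99 ± 0.05, adjusted p = 6.46e-08).

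Other macrophage genes of the STAT6 list rose with it. Clec7a, the beta-glucan receptor Dectin-1, rose by a log2 of 2.16 ± 0.12, Mrc1, the mannose receptor, by 1.04 ± 0.06, and the lectin gene Clec10a by 1.25 ± 0.12. Chil3, a chitinase-like protein, was at 0, 0.0443 and 0 TPM with IL-33/17A and at 1.6, 1.57 and 1.25 TPM with the triple combination (log2 change 1.28 ± 0.11). It passed the filter only through the triple libraries, so the test could find only a rise and its p-value is not given. Retnla, another gene of alternative activation, was listed at 0 in every IL-33/17A library and at 2.39, 0.998 and 1.0 TPM in the triple libraries, too low for the filter. Alarmin genes of the list rose too: Tslp by a log2 of 1.30 ± 0.12 and Il33 by 1.07 ± 0.11. The matricellular gene Postn, known from airway cells exposed to IL-13, rose by 0.88 ± 0.07.

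**Figure D1:**
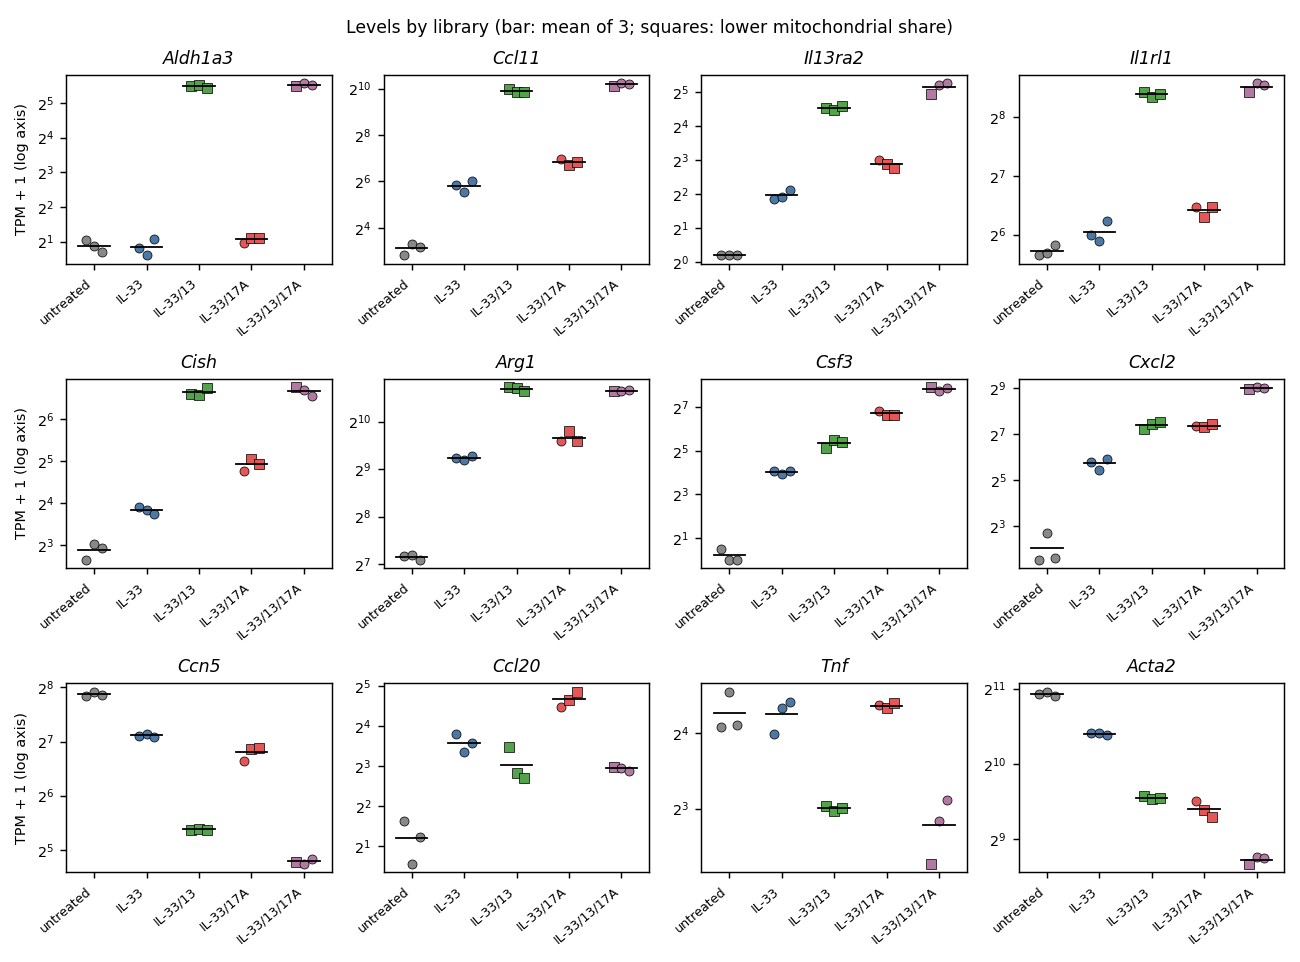
Levels of 12 genes in each library, as TPM + 1 on a log axis, for the 5 groups; bars are means of 3 libraries and squares are libraries of the lower mitochondrial share. The triple libraries lie above all IL-33/17A libraries for Aldh1a3, Ccl11, Il13ra2, Il1rl1, Cish, Arg1, Csf3 and Cxcl2, and below them for Ccn5, Ccl20, Tnf and Acta2.

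The largest rise among the genes chosen by size was that of Msx3, a homeobox gene (chromosome 7, 140046157 to 140049089). It was at 0, 0.302 and 0 TPM with IL-33/17A, about 1 estimated read in all 3 libraries together, and at 28.3, 26.3 and 24.2 TPM with the triple combination. The change on the log2(TPM + 1) scale was 4.64 ± 0.15, and no fold is given from so few reads. Msx3 passed the filter only through the triple libraries, so the test could find only a rise. Rnase2a, an eosinophil-associated ribonuclease, rose from 41.7 ± 3.99 TPM to 304 ± 16.2 TPM (log2 change 2.84 ± 0.16). It belongs to a family of near-identical genes, so its own share of the reads is uncertain. Tfpi2, an inhibitor of serine proteases, rose 6.51-fold, and Igfbp3, a binding protein of insulin-like growth factors, rose 4.03-fold from 76.6, 68.2 and 71.1 TPM to 271, 300.4 and 298 TPM. Upp1, uridine phosphorylase, rose by a log2 of 2.23 ± 0.15, Aif1l by 2.02 ± 0.12 and the kallikrein gene Klk8 by 1.88 ± 0.12. Car4, a carbonic anhydrase, and Nppb, a natriuretic peptide, rose by 2.54 ± 0.25 and 2.08 ± 0.27, both from under 1 TPM on average. At that level they needed the triple libraries to pass the filter, which favoured a rise.

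A pair of serpins of one gene cluster stood among these rises. Serpina3g, a serpin of activated immune cells, was at 161, 152 and 157 TPM with IL-33/17A and 769, 836 and 823 TPM with IL-33/13/17A (log2 change 2.36 ± 0.07, adjusted p = 3.36e-10). Serpina3n, an acute-phase serpin, was at 85.8, 52.5 and 54.6 TPM with IL-33/17A and 323, 360.3 and 380.2 TPM with IL-33/13/17A (log2 change 2.48 ± 0.14, adjusted p = 2.82e-07). In both, all triple libraries were above all IL-33/17A libraries, as the choice of the largest rises required. The Serpina3 genes are close copies of each other, and how reads matching several of them were assigned is not given in the sources used here, so the division between members is uncertain.

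Promoters are shown for 3 rising genes: 2 with a match to the palindromes that STAT proteins bind and Msx3, the gene with the largest rise, which has none. Each run is the 250 bases upstream of the RefSeq start (GRCm38.p6), 5′ to 3′ on the gene's strand, with a match in capitals. Serpina3g is at chr12:104235897-104236146, plus strand, Socs3 at chr11:117969367-117969616, minus strand and Msx3 at chr7:140049089-140049338, minus strand.
Serpina3g: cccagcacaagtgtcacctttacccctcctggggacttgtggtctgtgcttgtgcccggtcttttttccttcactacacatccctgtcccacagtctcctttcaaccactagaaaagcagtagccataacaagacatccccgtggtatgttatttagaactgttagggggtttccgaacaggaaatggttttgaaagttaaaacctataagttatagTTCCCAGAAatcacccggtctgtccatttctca
Socs3: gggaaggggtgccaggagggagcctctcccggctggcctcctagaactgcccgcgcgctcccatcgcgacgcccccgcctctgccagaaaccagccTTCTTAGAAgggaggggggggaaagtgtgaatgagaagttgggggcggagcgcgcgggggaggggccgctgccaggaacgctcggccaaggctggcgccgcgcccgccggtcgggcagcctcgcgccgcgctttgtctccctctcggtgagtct
Msx3: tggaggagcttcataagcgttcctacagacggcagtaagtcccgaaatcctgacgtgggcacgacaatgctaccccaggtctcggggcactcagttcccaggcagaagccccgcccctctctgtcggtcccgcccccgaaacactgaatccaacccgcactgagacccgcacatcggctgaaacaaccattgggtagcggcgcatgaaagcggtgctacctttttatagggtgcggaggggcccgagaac

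The motifs searched were the half-sites TTC and GAA with 4 bases between them, the spacing that STAT6 prefers, and TTCNNNGAA, with the spacing of 3 bases that most other STAT proteins use. Both read the same on either strand, and neither can lie within the other. Serpina3g holds TTCCCAGAA from base -33 to -25 before the start, and Socs3 holds TTCTTAGAA from -154 to -146. Of the 15 largest rises, 13 had a promoter entry, with 18 windows, and 2 of these genes held either motif, Serpina3g and Tfpi2. Of the 15 largest falls, 11 had an entry and none held a motif. Of the 20 STAT6 response genes that rose, 12 had an entry with 20 windows, and 5 windows of 4 genes held a motif (Serpina3g, Clec7a, Chil3 and Il33). Over all 32851 RefSeq windows, 12.4% held either motif, 5.85% the first and 7.02% the second.

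Secreted factors that attract or feed neutrophils rose further above the level that IL-33 and IL-17A gave. Of 11 tested genes of this list, 8 rose and none fell, with a median log2 change of 0.92, and 5 rose with a pseudocount of 0.1 TPM. Cxcl3 was at 92.9, 101 and 103 TPM with IL-33/17A and 346, 319 and 317 TPM with IL-33/13/17A (log2 change 1.72 ± 0.11, adjusted p = 5.09e-07), and Cxcl2 at 164, 157 and 175 TPM with IL-33/17A and 508, 527 and 520.4 TPM with IL-33/13/17A (log2 change 1.64 ± 0.24, adjusted p = 0.000608). Both encode ligands of the neutrophil receptor CXCR2, and in both the groups did not overlap. Csf3, the granulocyte colony-stimulating factor G-CSF, was at 113, 100.3 and 101 TPM with IL-33/17A and 242, 216 and 233 TPM with IL-33/13/17A (log2 change 1.13 ± 0.13, adjusted p = 7.35e-05). Csf2, which encodes GM-CSF, rose by a log2 of 0.92 ± 0.16, from 15.5 ± 1.59 TPM to 30.3 ± 2.5 TPM.

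Other members of this list changed by less. Cxcl5 rose by a log2 of 0.36 ± 0.07 from 4825 ± 190.0 TPM. Cxcl1 was at 3699, 3519.8 and 3644 TPM with IL-33/17A and 4666, 4694 and 4629 TPM with IL-33/13/17A, with every triple library higher, yet its log2 difference of 0.37 ± 0.15 did not pass the test (adjusted p = 0.121). It passed with a pseudocount of 5 TPM, on the 2 compared groups alone, and on estimated reads. Lcn2, the siderophore-binding lipocalin, was called at a log2 of 0.43 ± 0.10, adjusted p = 0.0134, and lost the call without replicate 2 or 3 of IL-33/17A or replicate 3 of the triple combination (adjusted p 0.0539 to 0.0573). Ppbp was called at 1.49 ± 0.39, adjusted p = 0.0211 and lost the call without replicate 3 of either group (adjusted p 0.0888 without the IL-33/17A library and 0.0857 without the triple library).

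The eosinophil and type 2 chemokines rose in 3 of 5 tested cases and fell in none. Beside Ccl11, Ccl8 rose by a log2 of 0.71 ± 0.10 and Ccl7 by 0.48 ± 0.10. Chemokines for monocytes and lymphocytes split by gene: 4 of 13 rose and 5 fell. The monocyte attractant Ccl2 went from 3969.5 ± 515 TPM to 5053 ± 214 TPM (log2 change 0.36 ± 0.08, adjusted p = 0.00762), and Ccl12 rose by 0.83 ± 0.10. Ccl20, the CCR6 ligand and a textbook IL-17A target, was at 21.1, 24 and 28 TPM with IL-33/17A and 6.84, 6.75 and 6.39 TPM with IL-33/13/17A. The triple libraries were all lower (log2 change -1.72 ± 0.25, adjusted p = 0.000558). Cx3cl1, the membrane-bound chemokine fractalkine, changed by a log2 of -0.78 ± 0.11 and Cxcl16 by -0.49 ± 0.04. The count of falls was 3 without replicate 1 of IL-33/17A or without replicate 3 of the triple combination.

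Of 23 tested cytokine and growth factor genes with known actions on macrophages, 9 were higher and 4 lower. The gp130 cytokine genes Il11 and Osm rose by a log2 of 0.88 ± 0.06 and 0.87 ± 0.08. Lif, of the same family, rose by 0.32 ± 0.07. Il6 was at 775, 722 and 699 TPM with IL-33/17A and 757, 881 and 899.8 TPM with IL-33/13/17A, where the groups overlapped and the test was not passed (log2 difference 0.21 ± 0.08, adjusted p = 0.0989). The call for Il6 was made with median-ratio scaling, on estimated reads and without replicate 1 of the triple combination. Csf1, the main macrophage growth factor, was at 342, 325 and 338 TPM with IL-33/17A and 354, 368 and 341 TPM with IL-33/13/17A, also overlapping (log2 difference 0.08 ± 0.03, adjusted p = 0.128).

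The classical inflammatory cytokines Tnf and Il1b went the other way. Tnf was at 19.6, 19.2 and 20 TPM with IL-33/17A and 3.82, 6.17 and 7.67 TPM with IL-33/13/17A (log2 change -1.62 ± 0.19, adjusted p = 9.11e-05). Il1b was at 37.9, 37.1 and 38.2 TPM with IL-33/17A and 19.6, 18.3 and 24.1 TPM with IL-33/13/17A (log2 change -0.85 ± 0.15, adjusted p = 0.00202). Every triple library was below every IL-33/17A library for both genes. Il1a rose by 0.67 ± 0.19, adjusted p = 0.0323, a call that was lost without any 1 of replicates 2 and 3 of either group (adjusted p 0.0974 to 0.121). Clec4e, the inflammatory lectin receptor Mincle, fell from 26.4 ± 1.19 TPM to 10.8 ± 2.56 TPM.

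**Figure D2:**
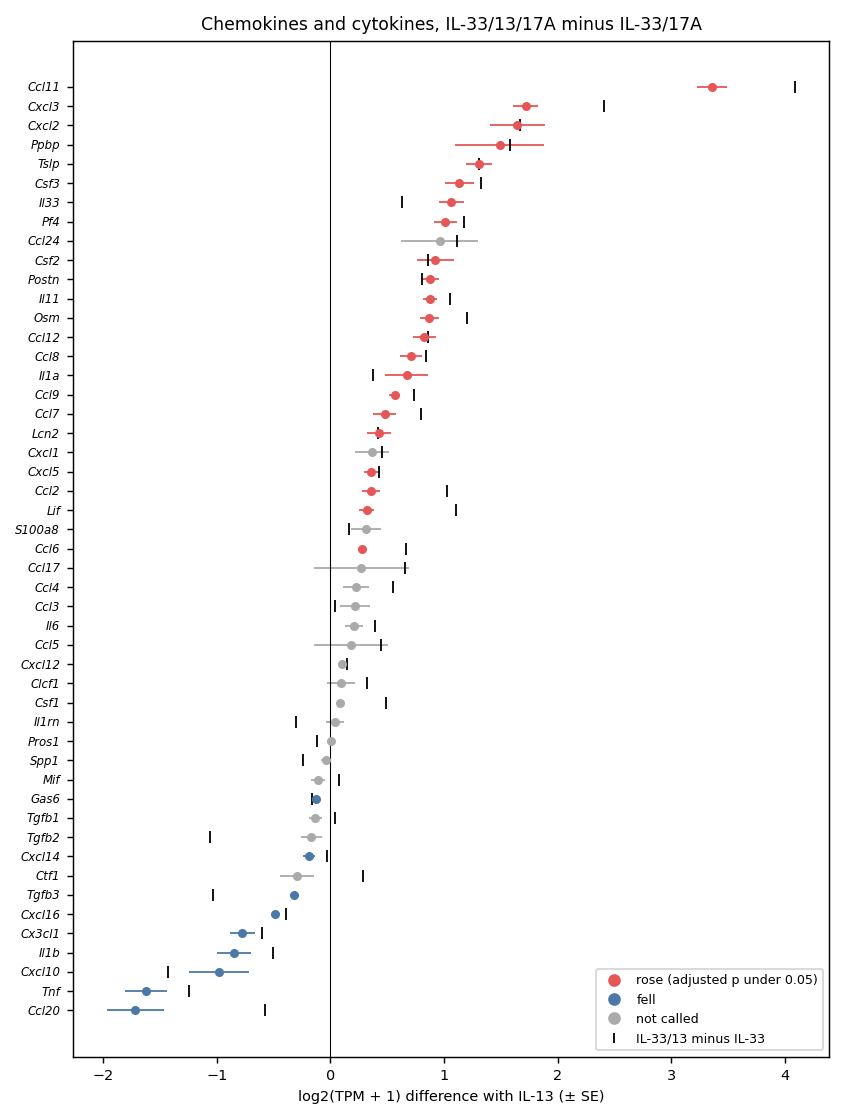
Log2(TPM + 1) differences of the tested chemokines and cytokines between the triple combination and IL-33/17A, with standard errors; black ticks give the difference between IL-33/13 and IL-33. Ccl11, Cxcl3 and Cxcl2 rose most and Ccl20 and Tnf fell most, while Il6, Cxcl1 and Csf1 were not called.

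Genes known to respond to IL-17A moved in both directions: of 31 tested, 12 rose and 7 fell, with a median log2 change of 0.21, and the falls were 4 without replicate 2 of either group. The risers included chemokines and growth factors named above, the collagenase gene Mmp13 (log2 change 1.14 ± 0.08) and the cyclooxygenase gene Ptgs2 (0.32 ± 0.05). The genes that fell included Ccl20, Nos2 (-0.34 ± 0.07), which makes nitric oxide, and Nfkbiz (-0.28 ± 0.04), a nuclear cofactor of IL-17A signalling. Of 26 NF-kB response genes 6 fell and 2 rose (4 with median-ratio scaling), beside 9.66% lower and 7.13% higher over all tested genes. The rises were thus near the share of all genes. Gbp2, Nfkbie and the adhesion gene Icam1 changed by -0.82 ± 0.07, -0.78 ± 0.11 and -0.42 ± 0.06, and Nfkb1 by 0.64 ± 0.06. Of 14 regulators of cytokine mRNA decay 4 rose (Rc3h2, Elavl1, N4bp1 and Zfp36l1, by a log2 of 0.33, 0.32, 0.23 and 0.18) and 1 fell, Zfp36l2 (-0.40 ± 0.10). The 4 rises were 2 without replicate 2 of either group, and Zfp36l2 lost its call without any 1 of replicates 2 and 3 of either group. Zc3h12a, which encodes the RNase Regnase-1, gave a log2 difference of 0.15 ± 0.05, adjusted p = 0.0709 and was not called.

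Acute-phase and iron genes also moved both ways, with 10 of 19 rising and 5 falling (3 without replicate 2 of either group). Haptoglobin, Hp, was at 196, 189 and 197 TPM with IL-33/17A and 98.4, 85.3 and 96 TPM with IL-33/13/17A (log2 change -1.05 ± 0.13, adjusted p = 0.000148). Its mean fell 2.08-fold without overlap, whereas Serpina3g and Serpina3n rose. Saa3, a serum amyloid gene, was called at -0.37 ± 0.10, adjusted p = 0.0273, but not without any 1 of replicates 2 and 3 of either group (adjusted p 0.0709 to 0.0955). Slc40a1, the iron exporter ferroportin, changed by -0.78 ± 0.13. Hamp, the gene of the hormone hepcidin that binds ferroportin, was at 0.584, 0.532 and 0 TPM with IL-33/17A and 2.74, 3.44 and 5.76 TPM with IL-33/13/17A (log2 change 1.84 ± 0.27). Hamp rested on an average of 0.665 and 6.98 estimated reads per library. It passed the filter only through the triple libraries, so the test could find only a rise and its p-value is not given. The 10 rises of this list include Hamp. Of 16 complement genes 6 fell and 2 rose. C3, the central complement protein, rose from 70.3 ± 6.24 TPM to 166 ± 2.62 TPM, while Cfb, of the alternative pathway, fell from 23.3 ± 1.69 TPM to 11.2 ± 0.382 TPM.

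Arginine and eicosanoid enzymes rose in part. In the arginine, polyamine and nitric oxide list, 5 of 18 rose and 3 fell. Slc7a2, a cationic amino acid transporter that takes up arginine, was at 41.5, 40.6 and 42.1 TPM with IL-33/17A and 108, 120.4 and 115 TPM with IL-33/13/17A (log2 change 1.44 ± 0.05, adjusted p = 1.08e-09), and Odc1, the first enzyme of polyamine synthesis, rose by 0.74 ± 0.06. These stood beside the rise of Arg1 and the fall of Nos2, enzymes that use the same substrate. Of 18 prostaglandin and leukotriene genes 7 rose and 2 fell. Ltc4s, the synthase of cysteinyl leukotrienes, was at 20.8, 23.8 and 24.4 TPM with IL-33/17A and 73.7, 69.4 and 68.1 TPM with IL-33/13/17A (log2 change 1.58 ± 0.13, adjusted p = 4.39e-06). Ptgis, prostacyclin synthase, rose by 1.03 ± 0.06 and Alox5, 5-lipoxygenase, fell by 0.39 on the log2 scale.

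Contractile and TGF-beta response genes fell as a group. Of 31 tested, 22 fell and none rose, and the median log2 change was -0.34 beside -0.01 over all genes. Ccn5, a secreted matricellular protein (GRCm38 chromosome 2, 163820861 to 163833146), was at 99.1, 115 and 117 TPM with IL-33/17A and 26.3, 25.8 and 27.6 TPM with IL-33/13/17A. It had the largest fall of any gene named by the rule, 4.15-fold (log2 change -2.01 ± 0.05, adjusted p = 3.36e-10). Acta2, smooth muscle actin and the usual marker of myofibroblasts, was at 724, 668 and 626 TPM with IL-33/17A and 406, 430.3 and 428 TPM with IL-33/13/17A (log2 change -0.67 ± 0.04, adjusted p = 8.10e-07). Itga11, a collagen-binding integrin chain of fibroblasts, was at 6.21, 5.16 and 5.62 TPM with IL-33/17A and 1.38, 1.35 and 1.48 TPM with IL-33/13/17A (log2 change -1.47 ± 0.07, adjusted p = 2.90e-08). In all 3 genes every triple library was below every IL-33/17A library, which the choice of the largest falls required of Ccn5 and Itga11. Calponin, Cnn1, the myosin light chain gene Myl9 and leiomodin, Lmod1, changed by -0.80 ± 0.04, -0.82 ± 0.08 and -0.97 ± 0.08.

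Matrix genes fell in 26 of 45 tested cases and rose in 5, with a median log2 change of -0.25. Col1a1 was at 4163, 5371 and 4767 TPM with IL-33/17A and 3447, 3174 and 2946 TPM with IL-33/13/17A (log2 change -0.58 ± 0.10, adjusted p = 0.00166), and Col3a1 changed by -0.28 ± 0.05. The groups did not overlap for either fibrillar collagen. Col6a3 fell 2.08-fold and Thbs2, thrombospondin 2, 2.32-fold, from 474 ± 26.4 TPM to 204 ± 14.3 TPM. Of the 5 genes of lysyl oxidases, which crosslink collagen, 3 rose: Loxl4 by a log2 of 1.19 ± 0.07, Loxl3 by 0.84 ± 0.06 and Lox by 0.44 ± 0.06. Loxl2 fell (log2 change -0.25 ± 0.06) and Loxl1 was not called (log2 difference -0.21 ± 0.07, adjusted p = 0.0567). The rises among matrix genes were 8 without replicate 1 of IL-33/17A. Fibronectin, Fn1, overlapped between the groups (log2 difference 0.10 ± 0.04, adjusted p = 0.142).

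Proteases and their inhibitors divided evenly, with 7 of 29 up and 8 down. Mmp13 was at 380.0, 323 and 328 TPM with IL-33/17A and 669, 812 and 788 TPM with IL-33/13/17A (log2 change 1.14 ± 0.08, adjusted p = 1.38e-06) and the macrophage elastase gene Mmp12 rose by 0.63 ± 0.11. Timp3, a matrix-bound inhibitor of metalloproteinases, was at 59.3, 50.1 and 52.6 TPM with IL-33/17A and 30.9, 33.2 and 34.2 TPM with IL-33/13/17A (log2 change -0.70 ± 0.06, adjusted p = 6.97e-06). Mmp3 and Mmp9 overlapped between the groups, with differences of -0.02 ± 0.07, adjusted p = 0.889 for Mmp3 and 0.01 ± 0.05, adjusted p = 0.929 for Mmp9. Pappa, a protease of insulin-like growth factor binding proteins, fell 2.75-fold, beside the rise of Igfbp3. Lrrc15, a membrane protein of TGF-beta-stimulated fibroblasts, fell 2.47-fold and Nrep, a small neuronal and fibroblast protein, 2.27-fold.

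The other large falls were of mixed function. Dio3, which inactivates thyroid hormone, was at 21.6, 14.8 and 20.9 TPM with IL-33/17A and 4.05, 4.7 and 5.67 TPM with IL-33/13/17A (log2 change -1.78 ± 0.17, adjusted p = 1.58e-05). Fabp7, a fatty acid binding protein, was at 8.72, 6.95 and 4.91 TPM with IL-33/17A and 2.05, 0.801 and 1.61 TPM with IL-33/13/17A, a change of -1.66 ± 0.26 that varied between library sets from -1.17 in the lower set to -2.16 in the higher set. Cox6a2 (log2 change -1.30 ± 0.19), Pilrb2 (-1.29 ± 0.22) and Trnp1 (-1.12 ± 0.11) completed the list with Isg15, the ubiquitin-like interferon-response protein (-1.07 ± 0.20). Cox6a2 rested on an average of 7.32 and 2.0 estimated reads per library. Pilrb2 has a near-identical neighbour, so its level is uncertain.

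**Figure D3:**
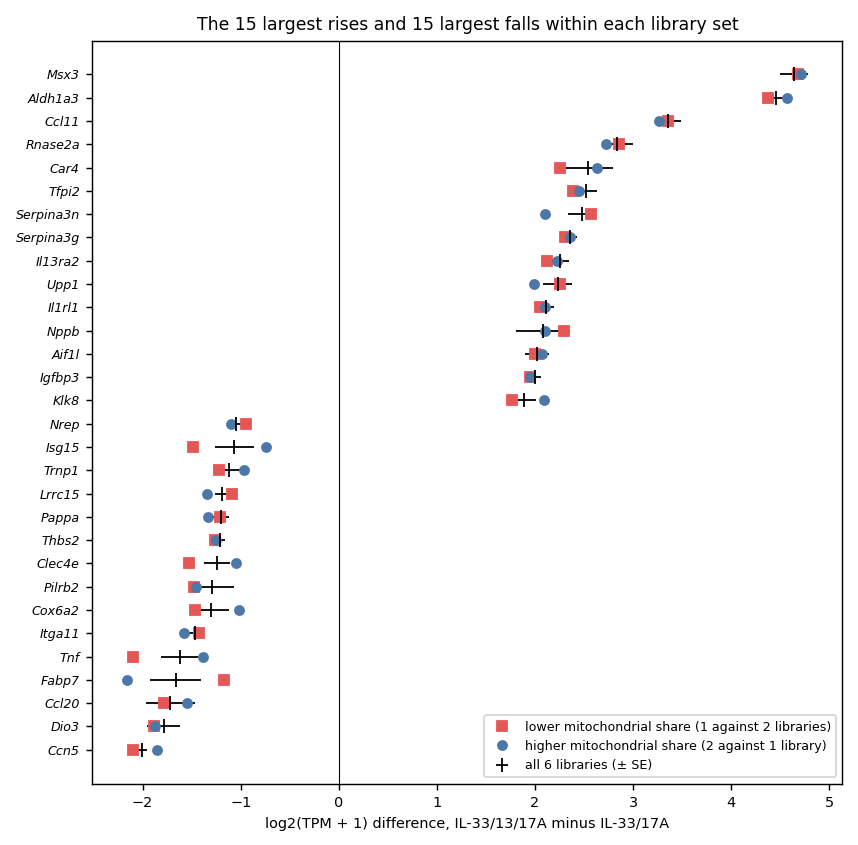
Log2(TPM + 1) differences of the 15 largest rises and 15 largest falls, over all 6 libraries with standard errors, and within the lower and the higher mitochondrial set. The genes were chosen without overlap between groups, which fixes their direction in both sets; Fabp7 and Isg15 differ most in size between the sets.

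Cell cycle genes rose by small amounts. Of 46 tested, 29 rose and 1 fell, with a median log2 change of 0.30, and 18 rose when replicate 2 of the triple combination was left out. Rrm2, a subunit of ribonucleotide reductase, was at 157, 181 and 170.1 TPM with IL-33/17A and 259.6, 260.0 and 258 TPM with IL-33/13/17A (log2 change 0.61 ± 0.05, adjusted p = 7.25e-06), and Cdc6, which licenses replication origins, rose by 0.60 ± 0.08. The groups did not overlap for either gene. Mki67, the proliferation marker, overlapped and was not called (log2 difference 0.26 ± 0.12, adjusted p = 0.163), and neither was the inhibitor gene Cdkn1a (0.01 ± 0.03, adjusted p = 0.920). Of 30 interferon-stimulated genes 10 fell and none rose, with a median of -0.21, and 6 fell under a filter of 5 TPM, where fewer genes are tested. Irgm1 and Gbp3, GTPases of the interferon response, changed by -0.41 ± 0.09 and -0.74 ± 0.08.

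Of 25 tested glycolysis and hypoxia genes 14 fell and 1 rose, with a median of -0.18, and the falls were 9 without replicate 2 of IL-33/17A and 8 without replicate 2 of the triple combination. Ndrg1 and the phosphofructokinase gene Pfkl changed by -0.50 ± 0.06 and -0.36 ± 0.06. Of 23 unfolded-protein and amino acid stress genes 7 rose and 1 fell. The risers included Pdia4, a disulfide isomerase of the endoplasmic reticulum (0.57 ± 0.05), Hspa5, the chaperone BiP (0.40 ± 0.03), and Psat1, an enzyme of serine synthesis (0.44 ± 0.04). In the retinoid list 7 of 15 rose and 2 fell, where Rdh5 and Dhrs3 changed by 0.78 ± 0.12 and 0.65 ± 0.06 beside the much larger rise of Aldh1a3. Cholesterol and fatty acid genes rose in 5 of 29 cases (8 without replicate 1 of IL-33/17A or with median-ratio scaling, 13 on estimated reads, 3 without replicate 2 of either group or replicate 3 of the triple combination) and fell in none.

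Growth factors split into 9 rises and 9 falls of 34 tested, the rises being 5 without replicate 2 of either group. Hbegf, an EGF receptor ligand, was at 42.4, 45.5 and 42.9 TPM with IL-33/17A and 89.5, 92.1 and 87.3 TPM with IL-33/13/17A (log2 change 1.02 ± 0.04, adjusted p = 1.98e-08), and Sfrp1, a Wnt inhibitor, rose by 1.07 ± 0.07. Pdgfb and Wnt5a changed by -0.63 ± 0.14 and -0.46 ± 0.06. Adhesion molecules and integrins fell in 6 of 22 cases (10 with the mitochondrial term) and rose in 2 (4 on estimated reads). In the homeobox and mesenchymal transcription factor list only Msx3 rose, and 6 of 22 fell, but 1 or 2 fell when replicate 3 of IL-33/17A or replicate 2 or 3 of the triple combination was left out. Of 16 antigen presentation genes 4 fell and 1 rose, beside 9.66% lower and 7.13% higher over all tested genes. The 4 became 2 without replicate 2 or 3 of IL-33/17A or replicate 3 of the triple combination, and the class I genes among them are close copies.

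**Figure D4:**
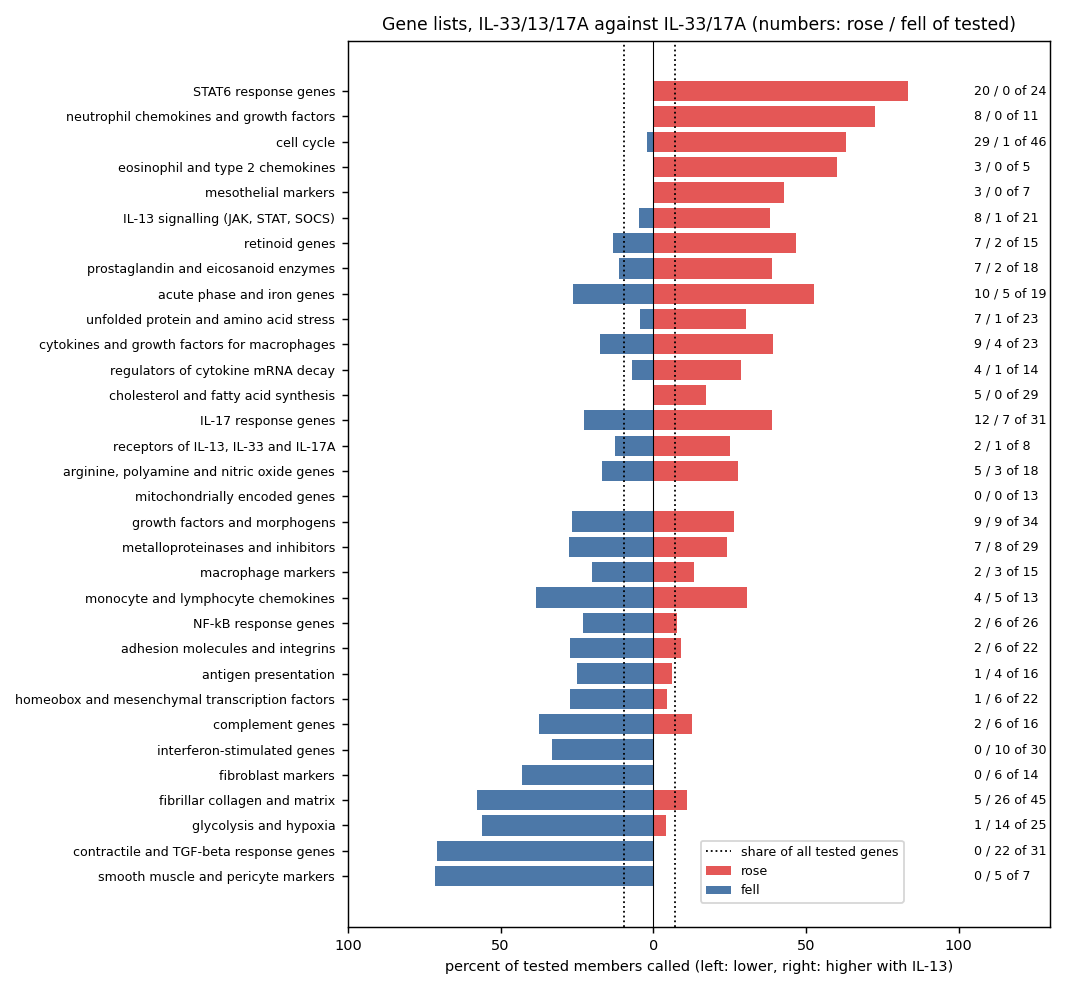
Share of the tested members of each gene list that rose (right) or fell (left) with IL-13 at an adjusted p under 0.05, with the counts; dotted lines give the shares over all tested genes, 7.13% higher and 9.66% lower. Among lists with at least 7 tested members, STAT6 response genes have the largest share of rises, 20 of 24, and the smooth muscle and pericyte markers (5 of 7) and contractile genes (22 of 31) the largest shares of falls. The smooth muscle and contractile lists share the falls of Lmod1, Actg2 and Myh11. The lists were chosen with earlier results of these data known. The 20 rises include Chil3, which passed the filter only through the triple libraries.

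Markers of cell types were read in the same way. Of 14 fibroblast markers 6 fell and none rose, 3 of which are collagens, and the PDGF receptor gene Pdgfrb was at 119, 118 and 123 TPM with IL-33/17A and 72.4, 68.7 and 69.2 TPM with IL-33/13/17A (log2 change -0.77 ± 0.04, adjusted p = 3.41e-08). Of 15 tested macrophage markers 3 fell (1 without replicate 2 or 3 of IL-33/17A or replicate 2 of the triple combination, 5 with the mitochondrial term) and 2 rose, Mrc1 and Adgre1, the gene of F4/80 (log2 change 0.31 ± 0.04). The part of a change in cell makeup in the falls of matrix and contractile genes was not tested. Of 7 markers of smooth muscle and pericytes 5 fell. Among these, Lmod1, Actg2 and Myh11 were already counted in the contractile list and Mcam in the adhesion list. The epithelial markers in the files had a median of 0.528 TPM and the endothelial markers 0.866 TPM over the 6 libraries, and of the first only Krt18 and Cdh1 passed the filter. None of the 13 mitochondrially encoded genes was called. Their median log2 difference was 0.14.

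The same cytokine was also added to IL-33 without IL-17A, a comparison that shares no library with the one above. There 4463 genes were called (33.9%), 1390 higher (10.6%) and 3073 lower (23.3%), or 2202 higher and 2106 lower with median-ratio scaling, and 1410 with a term for the mitochondrial set. In that comparison the library set and IL-13 cannot be told apart. Of the 2211 genes called with IL-17A, 1338 were also called without it in the same direction, which is 60.5% of the first list and 30.0% of the second, and 24 in the opposite direction. Of the 132 genes of at least 2-fold, 100 were called in the same direction without IL-17A, 4 in the other direction and 28 not at all. Each of the 4 is a predicted gene model of low level (Gm5566, Gm6451, Gm10709 and Gm32282), named after their values were seen. The log2 changes without IL-17A were 4.66 for Aldh1a3, 4.09 for Ccl11, 2.58 for Il13ra2, -1.74 for Ccn5 and -1.24 for Tnf. Ccl20 and Cox6a2, at -0.58 and -0.36, were not called there (adjusted p = 0.0926 and 0.158), and the difference between the 2 effects did not pass the test for either (-1.14, adjusted p = 0.0924, and -0.94, adjusted p = 0.0858).

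**Figure D5:**
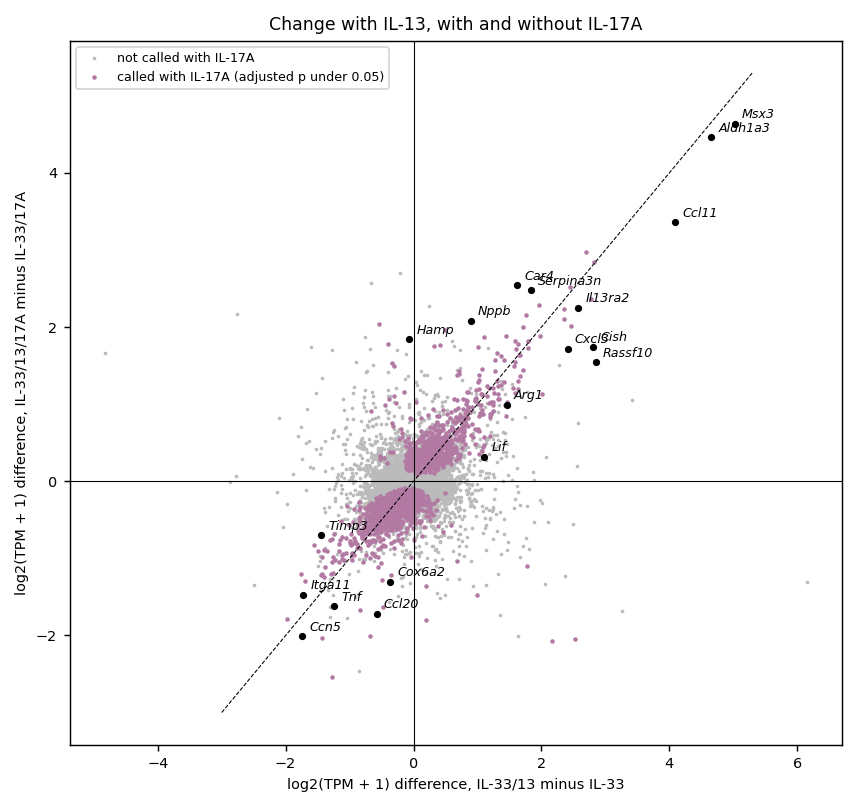
Log2(TPM + 1) change with IL-13 in the presence of IL-17A (vertical) against the change in its absence (horizontal) for all 13163 tested genes; the dashed line marks equal changes. The IL-13 targets Aldh1a3, Ccl11 and Il13ra2 rise in both, and Cish, Rassf10 and Lif lie below the line.

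Whether the effect of IL-13 differed by the presence of IL-17A was tested as an interaction, the change with IL-17A minus the change without it. It was called for 48 genes (0.365%), 22 higher (0.167%) and 26 lower (0.198%), while 3669 had an unadjusted p under 0.05. This count depended on single libraries and on the library set: it was 3065 without replicate 1 of IL-33/17A, 2330 without replicate 1 of the triple combination and 2 with a term for the mitochondrial set. Rgs16, a regulator of G-protein signalling, and Tgfb3, a TGF-beta ligand, were the 2 genes that kept the call with the term. Rgs16 rose by 0.40 ± 0.04 with IL-17A and by 1.07 without it (interaction -0.67, adjusted p = 0.000260, with the term -0.66 and 0.0251). Tgfb3 was at 47.5, 44.5 and 43.6 TPM with IL-33/17A and 36.4, 36.6 and 35.2 TPM with IL-33/13/17A, a change of -0.32 against -1.03 without IL-17A (interaction 0.72, adjusted p = 0.000267, with the term 0.66 and 0.0289). With IL-33 alone, Tgfb3 had a mean of 99.7 ± 4.36 TPM, and with IL-33/13 of 48.1 ± 1.16 TPM.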

How the data were processed

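The authors deposited TPM values for 18078 Ensembl genes per library. Reads were aligned with HISAT2, version not given, to the mouse build mm10, per the submitters' processing notes. The quantifier was not given in the sources used here, nor was its use of strand or of reads that match several genes. Coordinates are those of the files. The lowest TPM values multiplied by gene span fell on whole reads (tolerance 0.03) for 90.4% to 91.7% of 4143 to 4351 low values per library, so the length behind the authors' TPM was the gene span, introns included, and 1 read on 1 kb was worth 0.732 to 1.14 TPM. Levels of different genes are therefore not ranked, and TPM cuts and sums over markers carry this length scaling.

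All 15 libraries entered 1 limma fit (3.58.1, R 4.3.3; trend and robust options) of log2(TPM + 1), a pseudocount that understates the change of low genes, with a mean per group. Genes with 1 TPM in at least 3 of the 6 compared libraries were tested, and p-values were adjusted over all 13163 by Benjamini-Hochberg (called under 0.05). Errors of log2 changes are standard errors of this fit, and levels are mean ± SD of 3 libraries. The fit was also run on simulated data with the same spread in every group and no mitochondrial sets. That run cannot show how the fit handles the sets. Tables were made with Python 3.11.15 and pandas 2.3.3.

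Of 752 genes in 37 lists, 694 were in the files. Genes named were the 15 largest rises and 15 largest falls among called coding genes without overlap between groups and with a mean of at least 5 TPM in the higher group, up to 4 members of each list by size of change, members not called, the 8 largest interactions in each direction and a fixed set. The members and lists were chosen with earlier results of these data known. Alternatives were other pseudocounts (0.1 and 5 TPM), filters and scalings, a term for the mitochondrial share, fits within each set, the compared groups alone, and each library left out. A fit of limma-voom on reads estimated from TPM and gene span was added after the data were seen.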

Additional observations from a re-analysis of the deposited data

Results flagged for a closer look

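Each gene here was picked out because the change with IL-13 differed by the presence of IL-17A, by the interaction test in limma (adjusted p under 0.05). Values are the log2 change with IL-17A minus that without it, and in the IL-33 and IL-33/13 libraries, which differ in mitochondrial set, the set and IL-13 cannot be told apart. With a term for that set, Rgs16 and Tgfb3 kept the call and the other 22 did not.

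In 14 genes the change with IL-17A was lower than that without it. The interaction was -1.31 for Rassf10, which rose by 1.54 with and 2.85 without IL-17A, -1.07 for the signalling inhibitor Cish, -0.78 for the cytokine gene Lif, -0.72 for Nat14, -0.67 for Rgs16 and -0.67 for the monocyte chemokine Ccl2. It was -0.65 for Plekhf1, -0.60 for Hcls1, -0.60 for the long pentraxin Ptx3, -0.46 for Arg1, -0.45 for the RNase gene Zc3h12a, -0.41 for Csf1, -0.39 for Ccl6 and -0.27 for the prostaglandin E synthase Ptges. The log2 differences of Nat14, Plekhf1 and Ptx3 were -0.37, -0.16 and -0.24 with IL-17A and 0.35, 0.49 and 0.36 without it. Their calls with IL-17A were lost in 3, 5 and 4 of the 6 fits that left out 1 compared library. Of the interactions checked with 1 library left out, Nat14 and Ccl2 lost the call in 9 fits each and Hcls1 in 10. Hcls1 fell with IL-17A (-0.60) and was not called without it. Csf1 and Zc3h12a were not called with IL-17A and rose by 0.49 and 0.60 without it.

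In 10 genes the change with IL-17A was the higher. The interaction was 0.26 for the integrin gene Itga5, 0.40 for Cfl2, 0.47 for Adamts12, 0.58 for the hyaluronan-binding gene Cemip, 0.63 for Ankrd1, 0.72 for Tgfb3 and 0.75 for Fhl1. It was 0.75 for Timp3, 0.86 for Rc3h2 and 0.89 for Tgfb2. Fhl1 was called in opposite directions, at 0.38 with and -0.37 without IL-17A, and so were Rc3h2, at 0.33 and -0.52, and Cfl2, at 0.27 and -0.13. The call of Rc3h2 with IL-17A was lost without replicate 2 of IL-33/17A or replicates 2 or 3 of the triple combination (adjusted p 0.0984 to 0.107). Of the interactions checked with 1 library left out, Itga5 and Cfl2 lost the call in 9 fits each and Rc3h2 in 4.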

How the results depend on the processing

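No named gene that was called in the comparison reversed its direction under any alternative; Il13ra1, not called, ran from -0.10 to 0.02 with 1 library left out. The number called for IL-13 added to IL-33 plus IL-17A, 2211, was 803 on the compared groups alone, 801 within the lower mitochondrial set (1 library against 2) and 1381 within the higher set (2 against 1), which have fewer libraries, and the lone library there is assumed to vary like the others. It ran from 1468 to 2572 when 1 library was left out, lowest without replicate 2 of the triple combination. Without IL-17A, 4463 became 1410 with the mitochondrial term and 3087 to 3980 with 1 library left out. The 48 interactions became 81 with a pseudocount of 5 TPM, 93 with median-ratio scaling, 2 with the mitochondrial term, 1421 with limma-voom and 21 to 3065 with 1 library left out; the cause was not tested. The other alternatives stayed within 1.5 times of each count. Of 326 named and tested genes, 19 to 63 lost their call when 1 library was left out and 121 on the compared groups alone. List counts of 1 or 2 often moved by 1 or 2. No paired analysis was possible because the labels give no replicate numbers shared between groups. Precision is limited by 3 libraries a group and by read depth: a gene of 1 kb at 3 TPM rests on few reads.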

Other observations

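Outside the lists, further genes changed by 2-fold or more in the comparison with IL-17A; they were chosen after their values were seen. S1pr3, a receptor of sphingosine-1-phosphate, rose from 13.8 ± 0.775 TPM to 49.9 ± 3.13 TPM (log2 change 1.78), and Ednrb, the endothelin receptor B, from 9.15 ± 1.06 TPM to 22.3 ± 2.91 TPM (1.19). Kitl, the ligand of the mast cell receptor Kit, was at 1.82, 1.46 and 1.5 TPM with IL-33/17A and 5.68, 7.83 and 7.55 TPM with IL-33/13/17A (log2 change 1.62 ± 0.10, adjusted p = 4.11e-07), with no overlap. Rnf19b, a ubiquitin ligase, rose from 54.1 ± 2.12 TPM to 202 ± 8.14 TPM, and Gatm, which draws on arginine for creatine synthesis, from 42.5 ± 3.28 TPM to 88.7 ± 9.1 TPM. Cyp27b1, the enzyme that activates vitamin D, rose by 1.82, and Fgf23, a hormone that represses it in the kidney, by 1.96, both from under 1 TPM. At that level both needed the triple libraries to pass the filter, which favoured a rise.

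A further 3 genes that fell were chosen in the same way. Tlr9, the receptor of unmethylated DNA, was at 5.9, 3.72 and 4.26 TPM with IL-33/17A and 2.13, 1.11 and 1.12 TPM with IL-33/13/17A (log2 change -1.20 ± 0.19, adjusted p = 0.000912). Acod1, which makes itaconate, was at 4.97, 4.62 and 4.95 TPM with IL-33/17A and 1.71, 1.49 and 1.9 TPM with IL-33/13/17A (log2 change -1.12 ± 0.18, adjusted p = 0.00109). Aif1, the gene of the macrophage protein IBA1, went from 6.25 ± 1.31 TPM to 2.54 ± 0.489 TPM (-1.03), while its relative Aif1l rose. For all 3 genes every triple library was below every IL-33/17A library.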
